A study of Mus musculus with 12 samples.

Results

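The genes described are 10 mouse ETS transcription factor genes: Spi1, Spib and Spic, Ets1, Ets2 and Fli1, Elf1, and Etv1, Etv3 and Etv6. Open chromatin at them was taken from 6 lists of ATAC-seq peaks, 1 for each sorted cell population. ATAC-seq marks DNA that a transposase can reach, so a peak is a stretch of accessible chromatin and not a measure of RNA or of protein binding. A peak was given to a gene when its centre lay inside the gene, or when the gene was the nearest protein-coding gene within 100 kb (mm10). Peaks from different lists that overlapped by at least 1 bp were joined into merged regions, and 220 of 100354 merged regions belonged to the 10 genes, out of 21900 protein-coding genes considered.

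All cells came from C57BL/6J mice and 12 libraries were made, 2 for each of 6 populations. KC-H were Kupffer cells (macrophages that reside in the liver) sorted as F4/80-high and Tim4-positive from mice on a control diet. KC-N were the same population from mice on a NASH diet, which models nonalcoholic steatohepatitis, a fatty and inflamed liver disease. KN-RM were F4/80-high, Tim4-negative Kupffer cells from mice on the NASH diet. Ly6CHi-RM and Ly6CLo-RM were CD11b-high recruited liver macrophages with high or low Ly6C, and Blood-Ly6CHi-NASH were Ly6C-high monocytes from blood, all from mice on the NASH diet. KC-H was the only population from the control diet, so the effect of diet can be read within Tim4-positive Kupffer cells alone. The genotype was the same in all groups as far as the labels give it, and no age is used here. Liver macrophages were digested out of the tissue in the presence of flavopiridol, a transcription inhibitor.

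Each population had 1 deposited list for its 2 libraries, so no value below has a replicate error and no difference was tested. The lists held 63501 peaks for KC-H, 50550 for KC-N, 34293 for KN-RM, 61492 for Ly6CHi-RM, 54621 for Ly6CLo-RM and 69616 for Blood-Ly6CHi-NASH. A peak's score, a whole number the authors' files give, was used to rank peaks within a list: a peak "in the best-scored 5%" is among the top 5% of that list. Scores and ranks of different lists are given side by side and show no change in height. A region missing from a list was not called there, which is not evidence that its chromatin was closed. The labels were checked against marker genes: 8 Kupffer cell markers together had 113 peaks in KC-H, 51 in KC-N, 33 in KN-RM, with 16 to 27 in each of the other 3 lists. Timd4, which encodes Tim4, had 17 peaks in KC-H but 1 in KC-N, 0 in KN-RM, 0 in Ly6CHi-RM, 1 in Ly6CLo-RM and 0 in blood, so the Tim4-positive label of KC-N has little support in the peaks at that gene. Chil3, a monocyte marker, had 2 peaks in Ly6CHi-RM, 2 in blood and 0 in each of the other 4 lists.

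ETS factors share a DNA-binding domain that recognises a GGAA core (TTCC on the opposite strand). Spi1 encodes PU.1, the factor that macrophages and monocytes need to form and that opens much of their enhancer landscape together with partners such as C/EBP, IRF and AP-1 proteins. Spic encodes Spi-C, a close relative known for its part in red pulp macrophages of the spleen and in iron-recycling macrophages, and Spib encodes Spi-B, known from B cells and plasmacytoid dendritic cells. Ets1, Ets2 and Fli1 are broadly used in blood cells, Elf1 is a widely expressed activator, Etv3 and Etv6 encode repressors, and Etv1 belongs to the PEA3 group of activators.

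The promoter windows below, from 250 bases before to 50 after the gene start, are shown for Spic, whose intragenic region the results turn on, and for Spib, Elf1 and Etv6, where a peak touched the window (for Elf1, the first of its 2) in some lists but not in all. They were taken from RefSeq on GRCm38.p6, are written 5′ to 3′ on the gene's own strand, and carry every GGAA or TTCC in capitals. Spic is at chr10:88682974-88683273 (minus strand), Spib at chr7:44532022-44532321 (minus strand), Elf1 at chr14:79480944-79481243 (plus strand) and Etv6 at chr6:134035450-134035749 (plus strand).
Spic: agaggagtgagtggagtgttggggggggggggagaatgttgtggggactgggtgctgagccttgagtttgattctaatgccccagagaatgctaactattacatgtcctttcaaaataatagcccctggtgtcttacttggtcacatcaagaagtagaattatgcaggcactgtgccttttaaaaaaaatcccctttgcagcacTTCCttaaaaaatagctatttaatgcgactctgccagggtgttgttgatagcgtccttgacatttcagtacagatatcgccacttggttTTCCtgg
Spib: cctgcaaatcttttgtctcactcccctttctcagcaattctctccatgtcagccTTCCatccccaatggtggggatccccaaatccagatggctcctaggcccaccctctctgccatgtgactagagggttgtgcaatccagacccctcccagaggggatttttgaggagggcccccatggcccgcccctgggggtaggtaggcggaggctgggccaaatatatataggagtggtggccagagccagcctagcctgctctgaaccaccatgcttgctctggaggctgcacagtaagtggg
Elf1: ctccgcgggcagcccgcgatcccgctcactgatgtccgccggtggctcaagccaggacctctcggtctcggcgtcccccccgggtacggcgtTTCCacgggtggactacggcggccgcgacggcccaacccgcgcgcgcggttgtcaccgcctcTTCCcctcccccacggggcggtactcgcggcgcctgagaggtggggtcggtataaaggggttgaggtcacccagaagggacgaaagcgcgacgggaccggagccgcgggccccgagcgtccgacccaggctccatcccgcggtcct
Etv6: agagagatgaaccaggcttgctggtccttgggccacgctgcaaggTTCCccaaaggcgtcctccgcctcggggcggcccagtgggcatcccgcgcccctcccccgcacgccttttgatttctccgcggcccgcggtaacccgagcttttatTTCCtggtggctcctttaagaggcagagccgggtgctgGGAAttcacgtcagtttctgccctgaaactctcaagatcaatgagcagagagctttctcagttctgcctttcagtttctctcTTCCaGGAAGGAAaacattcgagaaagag

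The ETS core GGAA, searched on both strands, was found 2 times in the Spic window, 1 time in the Spib window, 2 times in the Elf1 window and 6 times in the Etv6 window. It says little by itself, since 96.0% of 32851 RefSeq promoters of the same length hold at least 1 copy. The longer PU.1-type sequence GAGGAAGT occurred in 3.20% of promoters and in none of the 9 member windows that the table holds, which cover 7 of the 10 genes. Of the other motifs searched on both strands, the Spib window held the C/EBP sequence TTGCNNAA (10.8% of promoters) and the Etv6 window the IRF sequence GAAANNGAA (8.56%). The IRF match in Etv6 starts at base 259 and the nearest ETS core after it at base 272, so they do not overlap, counted from 1 at the 5′ end. AP-1 (TGANTCA, 7.81%) was found at the second Elf1 start, RUNX (TGTGGT, 16.8%) and an E-box (CACGTG, 7.15%) at the first Etv1 start and at Etv3, C/EBP also at the second Etv1 start, and the GC box (GGGCGGGG, 17.6%) at none. Such a match describes the letters only.

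The 10 genes together had 156 peaks in KC-H, 109 in KC-N, 75 in KN-RM, 119 in Ly6CHi-RM, 129 in Ly6CLo-RM and 126 in blood. With each list cut to its best-scored 34293 peaks the counts became 82, 71, 75, 75, 77 and 70 in the same order, a narrower range. Of the 220 merged regions, 57 (25.9%, Wilson 95% interval 20.6% to 32.1%, counting error only) were in all 6 lists, against a background of 25.4% of all merged regions. Another 72 regions (32.7%) were in a single list, with a background of 27.6%. By position, 9 of the 19 regions within 1 kb of an end were in all 6 lists, against 40 of 159 further inside the genes and 8 of 42 further outside. These shares were not computed over all merged regions, so they have no background and show no trait of the 10 genes.

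**Figure D1:**
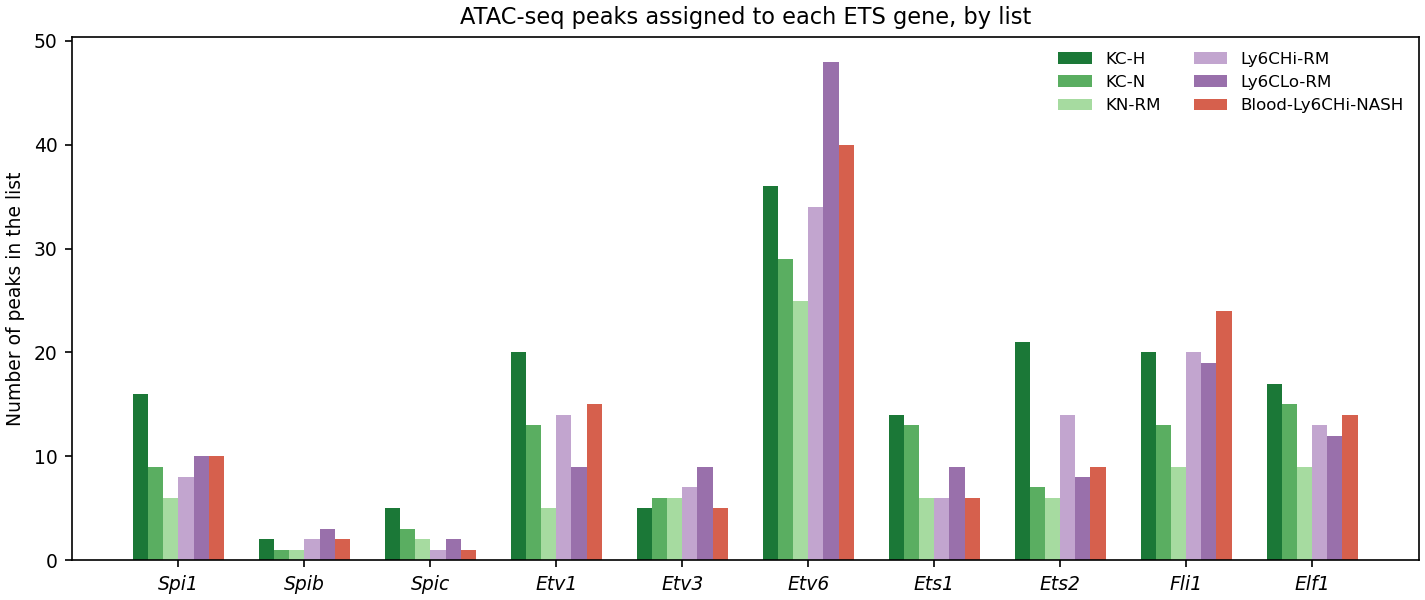
Number of peaks (vertical axis) assigned to each of the 10 ETS genes (horizontal axis) in each of the 6 lists, 1 bar per list and no error bars because each population has 1 list. Etv6 had the most peaks, 48 of them in Ly6CLo-RM, Ets2 had 21 in KC-H and 6 to 14 in the other lists, and Spic had 5 in KC-H and 1 in Ly6CHi-RM and in blood.

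Spic had a strongly scored region in Kupffer cells that was not called in monocytes. This region, 1.86 kb inside the gene (chr10:88681053-88681270), scored 174 in KC-H, 97 in KC-N, 52 in KN-RM, 19 in Ly6CLo-RM and was not called in Ly6CHi-RM or blood. This put it in the best-scored 4.03% of the KC-H list, in 7.96% of KC-N, in 21.6% of KN-RM, but at 95.5% in Ly6CLo-RM, close to the bottom of that list. By contrast the region at the Spic start (chr10:88682951-88683217), which holds most of the printed promoter, was in all 6 lists, with scores of 78 in KC-H, 42 in KC-N, 23 in KN-RM, 32 in Ly6CHi-RM, 43 in Ly6CLo-RM and 29 in blood. The start of Spic was therefore called as accessible also in blood monocytes, while the intragenic region was called in the 3 F4/80-high lists and at low rank in Ly6CLo-RM.

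The other 3 Spic regions were called in Tim4-positive Kupffer cells and in no other list. The region 1.05 kb into the gene scored 41 in KC-H and 27 in KC-N. Regions 6.61 kb into the gene and 0.53 kb before its start scored 45 and 41 in KC-H alone. In all, Spic had 5, 3, 2, 1, 2 and 1 peaks in the order from KC-H to blood used above, and 3, 2, 2, 0, 1 and 0 with lists of equal length. At equal length the start region was therefore no longer in all 6 lists, as its rank in Ly6CHi-RM (71.5%) and blood (76.9%) shows. The Kupffer cell markers, with 113, 51, 33, 25, 16 and 27 peaks, fell in the same order over the 3 F4/80-high lists but were lowest in Ly6CLo-RM, where Spic had 2 peaks. Their part in the Spic pattern was not tested.

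Spi1 was open in every population. Its regions 1.08 kb below the lower-coordinate end of the gene and 0.71, 2.33, 4.16 and 14.35 kb above that end were in all 6 lists. The highest-ranked of these was at 14.35 kb (chr2:91096613-91096837) in KC-H, KC-N, KN-RM and Ly6CLo-RM, with scores of 141, 95, 56 and 110, and at 0.71 kb (chr2:91082971-91083190) in Ly6CHi-RM and blood, with scores of 125 and 129. Each stood in the best-scored 18.7% of its list or higher. The region at 2.33 kb (chr2:91084591-91084809) varied more in rank, at 11.9% in KC-H, 44.9% in KC-N, 23.4% in KN-RM, 33.5% in Ly6CHi-RM, 48.1% in Ly6CLo-RM and 19.1% in blood.

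Of the 19 Spi1 regions, 5 (26.3%) were in KC-H and no other list, a pattern of 9.84% of all merged regions. Another 2 (at 2.00 and 16.39 kb) were in both Tim4-positive lists and no other, a pattern of 3.64% of all merged regions. The 2.00 kb region (chr2:91084254-91084501) scored 66 in KC-H, within the best-scored 33.3%, and 33 in KC-N, at 60.7%. The 5 KC-H regions all scored low, from 25 to 36, and none remained with lists of equal length, at which Spi1 had 7, 6, 6, 7, 6 and 7 peaks. No Spi1 region was on the blood and CD11b-high side, meaning in at least 2 of those 3 lists and in no F4/80-high list. The region at 6.84 kb was called in blood at a score of 49 and not in Ly6CHi-RM, and KC-H, KC-N, KN-RM and Ly6CLo-RM also held it.

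Below the Spi1 gene, regions that the nearest-gene rule gave to the neighbouring Slc39a13 also lay within 20 kb. The region 11.733 kb below the lower end (chr2:91070510-91070772) was in all 6 lists, with scores of 130 in KC-H, 92 in KC-N, 54 in KN-RM, 166 in Ly6CHi-RM, 115 in Ly6CLo-RM and 162 in blood, and in Ly6CHi-RM, Ly6CLo-RM and blood it ranked above each region assigned to Spi1. Its neighbour at 12.061 kb (chr2:91070186-91070440) scored 128 in KC-H, 79 in KC-N, 121 in Ly6CLo-RM, and was not called in KN-RM, Ly6CHi-RM or blood. Regulatory elements upstream of Spi1 are well known in blood cells. No strand or start of Spi1 was available here, so these regions were not matched to them. These regions were looked at after the values were seen and are outside the counts.

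**Figure D2:**
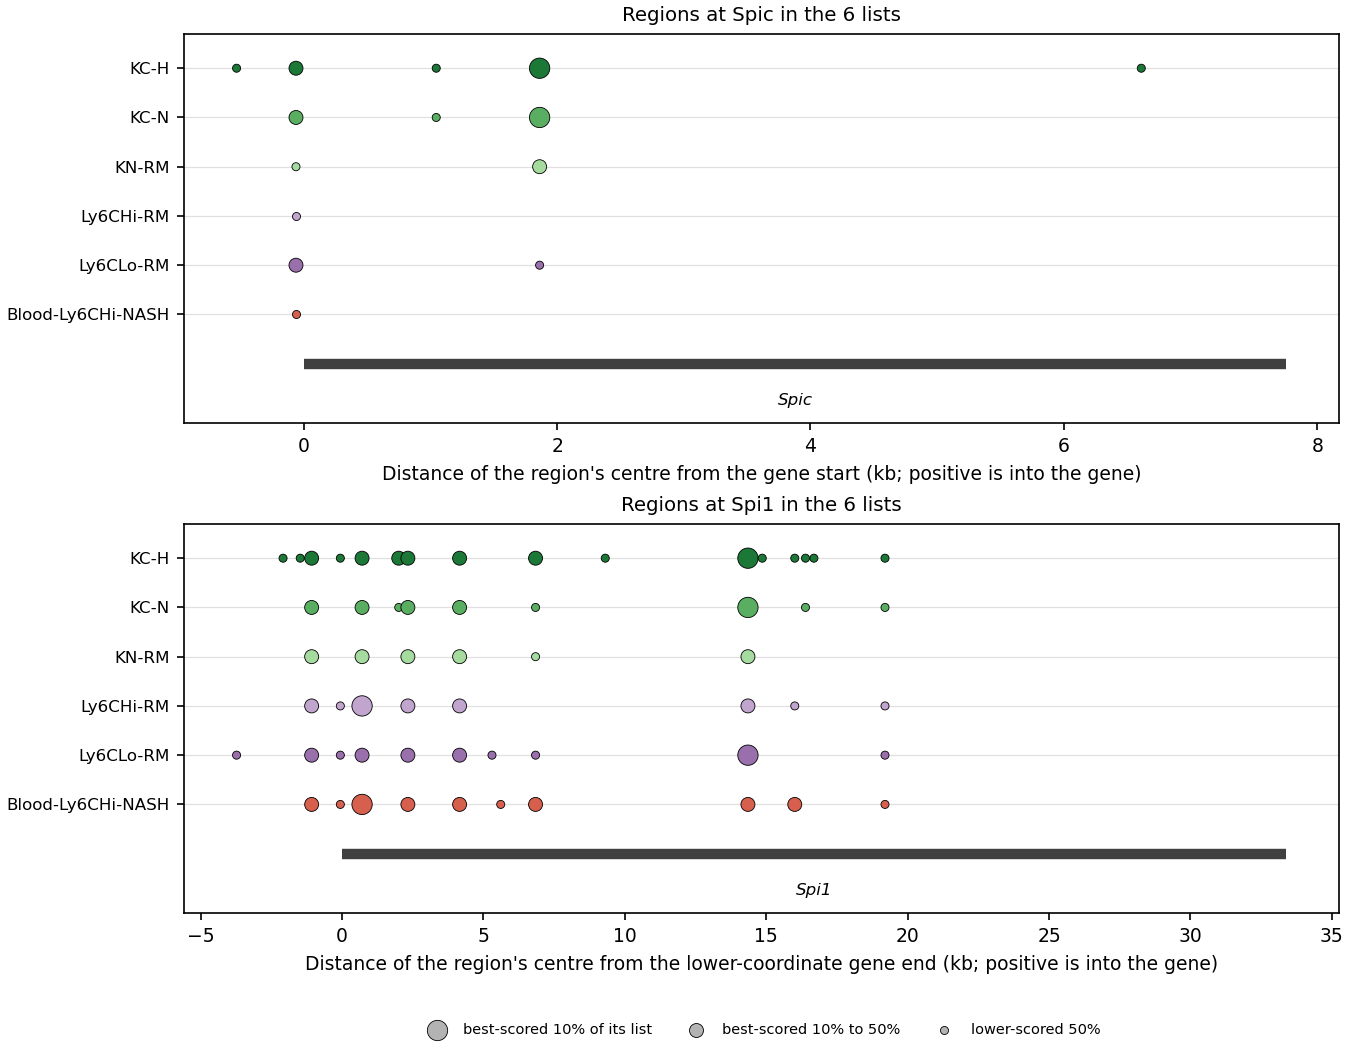
Merged regions at Spic (top) and Spi1 (bottom) in each list, placed by distance of the centre in kb from the gene start (Spic) or the lower-coordinate gene end (Spi1), with the gene as a dark bar. Point size gives the rank of the region's score within its list: the Spic region at 1.86 kb is in the best-scored 10% in KC-H and KC-N and is missing from Ly6CHi-RM and blood, while 5 Spi1 regions line up across all 6 lists.

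Spib had 3 regions. The region 3.95 kb into the gene (chr7:44528023-44528253) was in all 6 lists, with scores of 73 in KC-H, 46 in KC-N, 40 in KN-RM, 95 in Ly6CHi-RM, 62 in Ly6CLo-RM and 67 in blood. The region at the gene start (chr7:44532041-44532241), inside the printed Spib promoter, was called in Ly6CLo-RM alone, with a score of 31 at 64.8% of that list. The region at 4.38 kb was in KC-H, Ly6CHi-RM, Ly6CLo-RM and blood with scores of 38, 31, 19 and 24. Among B cell markers, Cd79b had 0 peaks in every list and Cd79a had 1 in each. Ms4a1 had 1, 1, 0, 2, 1 and 1 from KC-H to blood and Pax5 had 1, 0, 0, 1, 2 and 1, so Pax5 was highest in Ly6CLo-RM. Of 5 dendritic cell markers, the sum was 19 in KC-H, 13 in KC-N, 10 in KN-RM, 26 in Ly6CHi-RM, 31 in Ly6CLo-RM and 30 in blood. Within that sum the plasmacytoid marker Siglech had 3, 1, 1, 2, 4 and 1. The part of B cells or dendritic cells in the Spib start region was not tested.

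Ets1 and Fli1 lie next to each other on chromosome 9, and they differed in which one-sided regions they held. Of 18 Ets1 regions, 5 were in at least 2 F4/80-high lists and in no other, and 0 were on the blood and CD11b-high side. Of 31 Fli1 regions, 0 were on the F4/80-high side and 3 on the blood and CD11b-high side. Over the 10 genes, 17 regions (7.73%) were on the F4/80-high side, with a background of 6.09%, and 16 (7.27%) on the blood and CD11b-high side, with a background of 14.0%. The share of Fli1, 9.68%, was thus below that background, and the share of Ets1 on the F4/80-high side was 27.8%. With lists of equal length, the 10 genes had 13 of 127 regions on the F4/80-high side (10.2%), against 10.3% of all regions. On the blood and CD11b-high side they had 5 of 127 (3.94%), against 9.83%. Of the Ets1 regions, 4 of 9 were then on the F4/80-high side, 3 of them from the original 5, against 10.3% of all regions. Fli1 then had 1 of 16 regions on the blood and CD11b-high side, which was none of the original 3, against 9.83% of all regions. The difference between the genes was not tested.

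The Ets1 regions of the F4/80-high side lay between 36.31 and 79.99 kb from the lower end of the gene. The region at 44.11 kb (chr9:32680249-32680453) scored 53 in control Kupffer cells, 29 in KC-N, 23 in KN-RM, and was the one held by all 3 F4/80-high lists. Those at 36.31 kb (chr9:32672438-32672663), 40.52 kb (chr9:32676652-32676874), 58.08 kb and 79.99 kb were in KC-H and KC-N, with KC-H scores of 61, 58, 30 and 40 and KC-N scores of 37, 43, 28 and 28. So 4 of the 5 were missing from the Tim4-negative Kupffer cells of the same NASH livers, whose list is the shortest. The liver endothelial marker Stab2 had 19 peaks in KC-H, 13 in KC-N, 7 in KN-RM, with 1 in each other list, whereas Kdr had 2, 3, 2, 5, 7 and 7. The 4 endothelial markers together had 24, 18, 9, 9, 10 and 11 peaks, and their part in the Ets1 pattern was not tested.

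The strongest Ets1 region was shared. The region at 59.75 kb (chr9:32695873-32696106) scored 203 in KC-H, 122 in KC-N, 73 in KN-RM, 173 in Ly6CHi-RM, 159 in Ly6CLo-RM and 189 in blood, and stood in the best-scored 2.09%, 3.56%, 8.44%, 2.91%, 2.54% and 1.39% of these lists. No other region of the 10 genes scored higher in KC-H, KC-N, Ly6CHi-RM or Ly6CLo-RM. At the lower end of Ets1 itself a region was called in KC-H alone, with a score of 30.

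Fli1 had its regions of the blood and CD11b-high side at 71.60, 77.47 and 94.29 kb from its lower end. The region at 77.47 kb (chr9:32499567-32499779) scored 49 in Ly6CHi-RM, 27 in Ly6CLo-RM and 39 in blood, and that at 71.60 kb scored 29 in Ly6CHi-RM and 59 in blood. Among the 8 Fli1 regions held by all 6 lists, the one at 86.67 kb (chr9:32508759-32508986) scored 104 in KC-H, 70 in KC-N, 43 in KN-RM, 131 in Ly6CHi-RM, 96 in Ly6CLo-RM and 148 in blood. It ranked in the best-scored 5.20% of the blood list and 8.60% of Ly6CHi-RM, and between 13% and 33.1% in the other 4. A region at 87.73 kb was called in the 3 blood and CD11b-high lists and, at 84.6%, in KN-RM, and in neither Tim4-positive list.

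**Figure D3:**
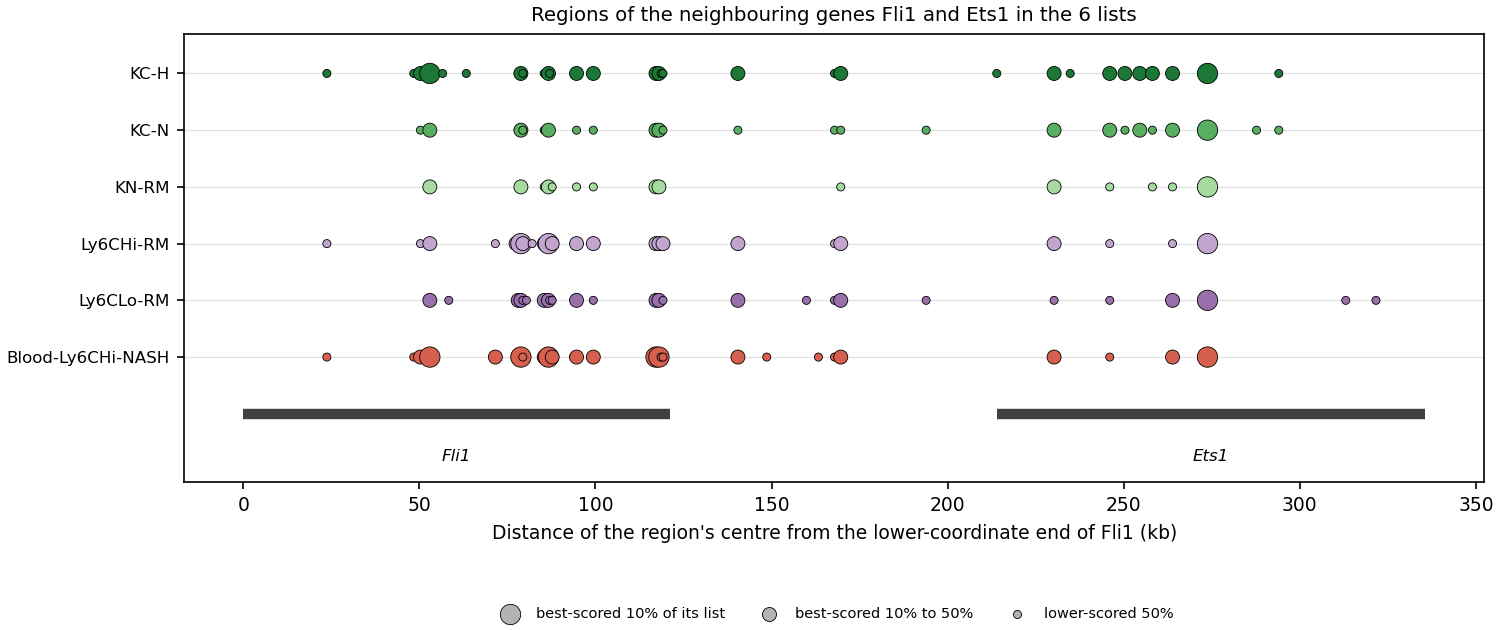
Merged regions of Fli1 and Ets1 in each list, placed by distance of the centre in kb from the lower-coordinate end of Fli1, with the genes as dark bars and point size giving the score rank within the list. Within Ets1, several points appear in the KC-H and KC-N rows only, and the large point shared by all 6 rows is the region 59.75 kb above the lower end of Ets1.

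Ets2 had the most regions called in control Kupffer cells alone: 9 of its 24 regions were in KC-H and no other list, ahead of Etv6 with 7 of 66. For the 10 genes this was 33 of 220 (15.0%), with a background of 9.84%. All 9 scored between 26 and 40, below the best-scored 60% of the KC-H list, and 7 of them lay in a run from 0.94 to 6.98 kb inside the gene. With lists of equal length the share over the 10 genes was 5.51% (7 of 127 regions), against 5.21% of all regions. None of the 9 Ets2 regions was left in the shortened KC-H list, and the 1 Ets2 region with this pattern there was another one. Of 21 Ets2 peaks in KC-H, 7 overlapped a KC-N peak (33.3%), against 68.8% of all KC-H peaks. With lists of equal length, 7 of 9 Ets2 peaks in KC-H did so (77.8%), against 81.3% of all KC-H peaks.

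The strong Ets2 regions were shared. The start region (chr16:95702290-95702527) scored 184 in KC-H, 120 in KC-N, 73 in KN-RM, 171 in Ly6CHi-RM, 122 in Ly6CLo-RM and 190 in blood, all within the best-scored 8.42% of their lists. A region at 26.62 kb, beyond the gene (chr16:95728802-95729248), scored 178, 109, 76, 144, 129 and 125 in the same order. It was joined from a chain of peaks. Its KC-N peak (chr16:95728818-95729018) and its KN-RM peak (chr16:95729039-95729239) did not overlap each other. Between the start region and that at 26.62 kb, the region at 21.96 kb (chr16:95724229-95724501) scored 178 in KC-H, 96 in KC-N, 64 in KN-RM, 51 in Ly6CHi-RM, and was not called in Ly6CLo-RM or blood. Its rank was 3.72%, 8.22%, 13% and 45.4%. This Ets2 region and the Spic region at 1.86 kb thus shared high ranks in the 3 F4/80-high lists and absence from blood, and differed in which CD11b-high list held them.

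Elf1 had 4 of its 24 regions on the F4/80-high side and 2 on the other. The shares were 16.7%, against 6.09% of all regions, and 8.33%, against 14.0%. With lists of equal length 2 of 17 were on the F4/80-high side (11.8%), against 10.3% of all regions. The clearest of the 4 was at 27.97 kb (chr14:79509026-79509262). It scored 63 in control Kupffer cells, 65 in KC-N, 24 in KN-RM, and ranked at 35.6%, 20.4% and 82.6%. A region at 1.26 kb was also in all 3 F4/80-high lists and no other, with scores of 36, 30 and 21. At the printed Elf1 promoter, the region chr14:79480999-79481310 scored 62 in KC-H, 37 in KC-N, 63 in Ly6CHi-RM, 49 in Ly6CLo-RM and 92 in blood and was not called in KN-RM. It is shared with the adjoining gene Wbp4, to which the nearest-gene rule gave it, so it is outside the counts. The region just inside Elf1, at 0.40 kb, was in all 6 lists with scores of 120, 78, 45, 98, 72 and 134.

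Etv6 had the most regions, 66, and it held most of the regions found in Ly6CLo-RM alone. Of the 220 regions, 23 (10.5%) were in the Ly6CLo-RM list and no other, with a background of 3.93%, and 12 of these belonged to Etv6. Their scores ran from 21 to 46 and 1 of the 12, at 83.00 kb (chr6:134118599-134118799), was in the best-scored 50% of the list. With lists of equal length 10 of 41 Etv6 regions had this pattern, against 5.23% of all regions, of which 5 came from the original 12 and the other 5 had lost their peaks in other lists to the shortening. The regions are spread over one gene and its 3′ flank, where 4 of them lay between 243.53 and 266.49 kb from the start, and the 12 share that locus and that list. The sum of the 5 dendritic cell markers was 31 peaks in Ly6CLo-RM and 30 in blood. In Ly6CLo-RM it was made of 11 at Flt3, 11 at Zbtb46, 5 at Xcr1, 4 at Siglech and 0 at Clec9a, beside 12, 9, 6, 1 and 2 in blood. The part of dendritic cells in this pattern was not tested.

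Etv6 also had 8 regions on the blood and CD11b-high side (12.1%, against 14.0% of all regions). It had 3 on the F4/80-high side (4.55%, against 6.09%), so both shares were below the background. The region at 95.27 kb (chr6:134130852-134131078) scored 81 in Ly6CHi-RM, 36 in Ly6CLo-RM and 101 in blood. The region at 54.79 kb (chr6:134090389-134090595) scored 49 in KC-H, 40 in KC-N, and a lower 28 in the short KN-RM list. The region at the Etv6 start, which reaches from the end of the printed window into the gene, was in all 6 lists with scores of 92, 56, 40, 107, 68 and 124. In Ly6CLo-RM no peak touched the window itself. A region 0.549 kb before the start, assigned to Gm46977, was in all 6 lists as well.

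**Figure D4:**
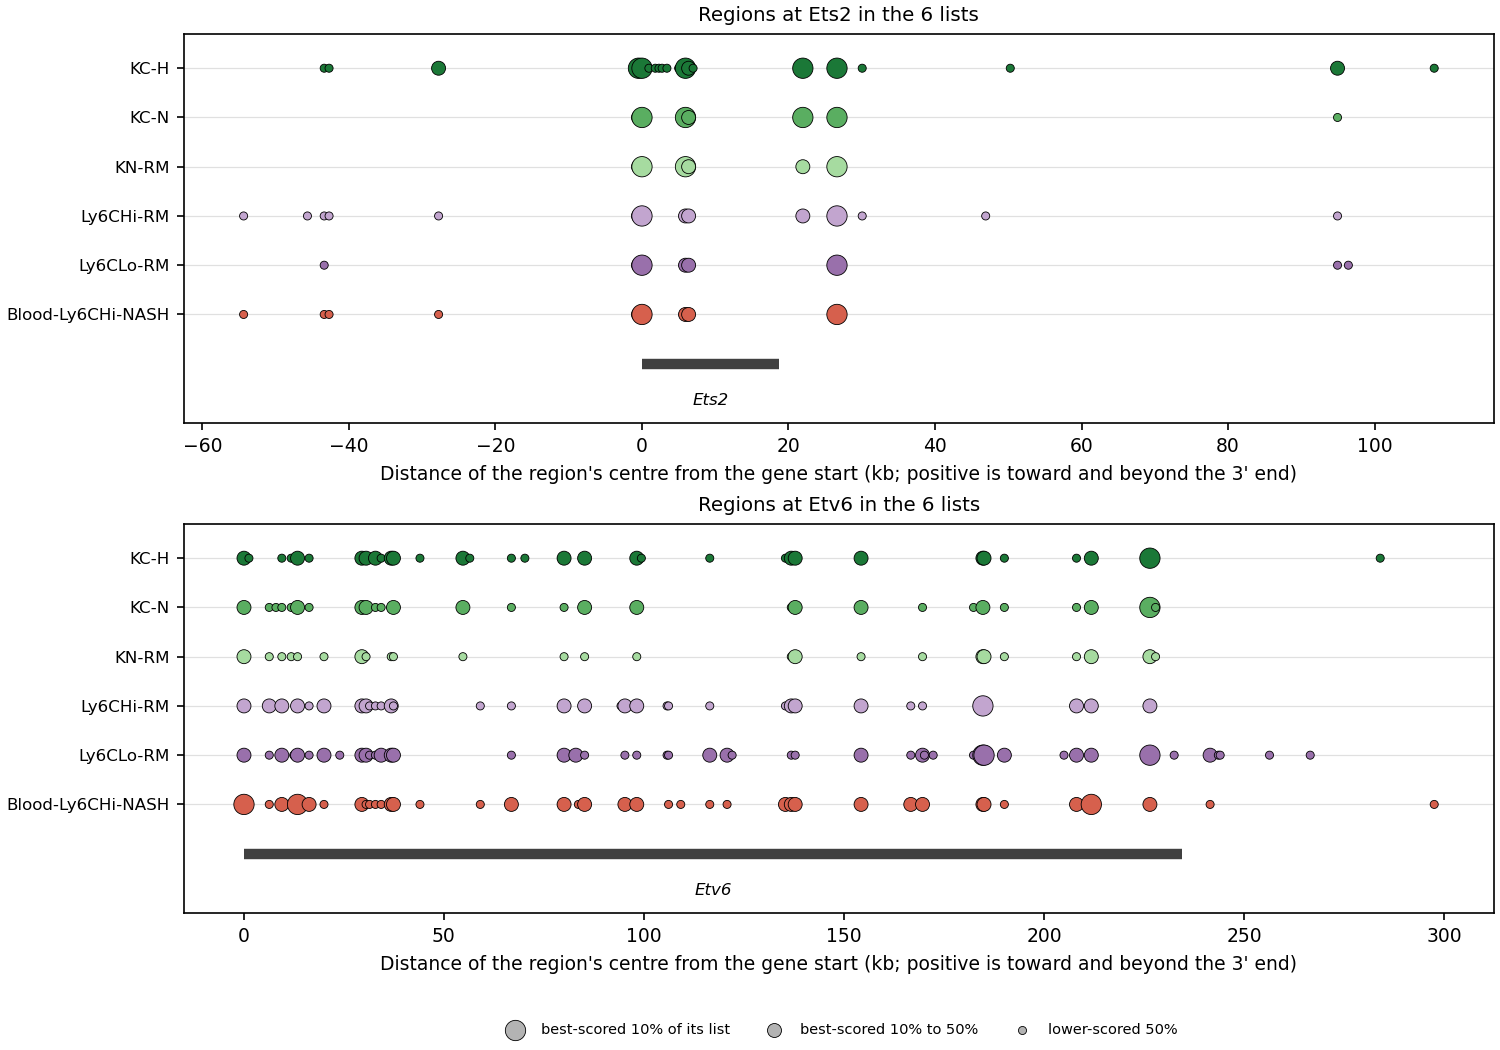
Merged regions at Ets2 (top) and Etv6 (bottom) in each list, placed by distance of the centre in kb from the gene start, with the gene as a dark bar and point size giving the score rank within the list. The Ets2 region at 21.96 kb is missing from Ly6CLo-RM and blood, small KC-H points crowd the inside of Ets2, and the Ly6CLo-RM row of Etv6 carries 12 points that no other row has.

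Etv3 differed from the other 9 genes in having fewer peaks in control than in NASH Kupffer cells, 5 against 6. Its counts were 5, 6, 6, 7, 9 and 5 from KC-H to blood, and 4, 3, 6, 5, 7 and 4 with lists of equal length, at which the direction between KC-H and KC-N turned round (4 against 3). The region at 4.23 kb (chr3:87529690-87529917) was missing from KC-H and scored 27 in KC-N, 26 in KN-RM, 74 in Ly6CHi-RM, 56 in Ly6CLo-RM and 67 in blood. It was 1 of 3 regions among the 10 genes held by all 5 NASH lists and not by KC-H (1.36%), with a background of 0.842%, and the other two were at Etv6 (6.41 and 169.63 kb). At equal length none of the 3 kept that pattern. A region at 1.78 kb (chr3:87527255-87527465) scored 25 in KN-RM, 36 in Ly6CHi-RM and 74 in Ly6CLo-RM and was missing from both Tim4-positive lists and blood. The start region of Etv3 was in all 6 lists, with scores of 122, 72, 40, 114, 104 and 127.

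Etv1 showed the widest gap between the 2 Kupffer populations of NASH livers. It had 20 peaks in KC-H, 13 in KC-N, 5 in KN-RM, 14 in Ly6CHi-RM, 9 in Ly6CLo-RM and 15 in blood, and 12, 11, 5, 9, 6 and 9 with lists of equal length. Of the 13 KC-N peaks, 5 overlapped a KN-RM peak (38.5%), against 64.0% of all KC-N peaks. The 5 regions that KN-RM held, at 1.71, 1.36 and 0.60 kb before the start and 0.19 and 8.70 kb inside the gene, were in all 6 lists. KN-RM thus lacked every region of Etv1 beyond 8.70 kb. One of those, at 149.08 kb (chr12:38929040-38929281), scored 58 in KC-H, 54 in KC-N, 55 in Ly6CHi-RM, 40 in Ly6CLo-RM and 96 in blood. The region at 80.34 kb (chr12:38860296-38860543) was the 1 Etv1 region of the blood and CD11b-high side, with scores of 46, 35 and 76. The region at 1.36 kb before the start ranked at 6.71% in KC-H, 9.51% in KC-N, 31.2% in KN-RM, 37.8% in Ly6CHi-RM, 40.7% in Ly6CLo-RM and 13.6% in blood.

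**Figure D5:**
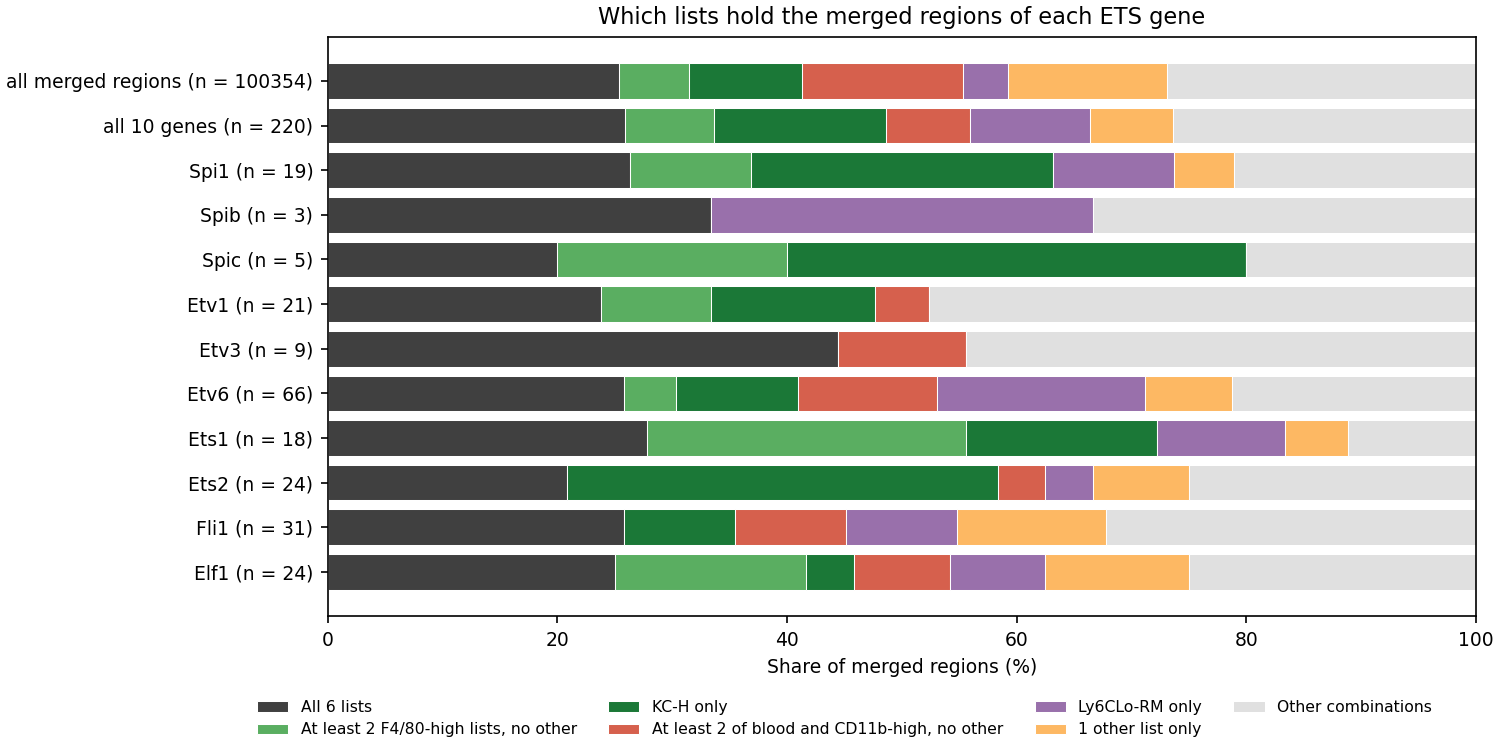
Share of merged regions (horizontal axis, %) by the lists that hold them, for all merged regions, the 10 ETS genes together and each gene (n, number of regions). The share in all 6 lists is 25.9% for the 10 genes and 25.4% for all regions, Ets1 has the longest segment of the F4/80-high side, Ets2 a long segment of KC-H alone and Etv6 a long segment of Ly6CLo-RM alone.

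The diet comparison is between KC-H and KC-N. Among peaks in the best-scored 50% of a list, 4 of 78 at the 10 genes were in KC-H without an overlapping KC-N peak (5.13%), with a background of 5.69%. In the other direction 0 of 55 KC-N peaks lacked a KC-H peak, with a background of 3.73%. The 4 were 2 at Ets2 and 1 each at Etv6 and Etv1, and 3 of them had a KC-N peak centre 230 to 296 bp away, so that 1 stood alone, at 27.76 kb before Ets2 (score 63). Over all scores, 99 of 156 KC-H peaks (63.5%) overlapped KC-N, against 68.8% of all KC-H peaks. With lists of equal length it was 64 of 82 (78.0%), against 81.3%. More peaks in KC-H than in KC-N were counted for 9 of the 10 genes, and 0 tied. Over all 14388 genes with a peak in either list the share was 50.6%. That share takes in genes with few peaks and counts ties as not higher, so it is not a like background. The lists also differ in length in the same direction.

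KC-N against KN-RM compares Tim4-positive with Tim4-negative Kupffer cells in NASH livers. Of 55 high-scoring KC-N peaks at the 10 genes, 6 had no KN-RM peak (10.9%), with a background of 6.32%, and 4 of the 6 were the Etv1 regions at 64.14, 84.05, 124.64 and 149.08 kb. Ets1 at 40.52 kb was the fifth. The sixth, at Ets2 in the merged region at 26.62 kb, had a KN-RM centre 221 bp away. In the other direction 2 of 36 KN-RM peaks had no KC-N peak, with a background of 1.03%, and both had a KC-N centre 221 or 255 bp away.

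Blood monocytes against Ly6CHi-RM, the comparison across entry to the liver, gave few differences. Of 72 high-scoring blood peaks 2 were missing from Ly6CHi-RM, with a background of 2.18%: Spi1 at 6.84 kb and an Etv6 peak at 185.01 kb whose neighbour lay 270 bp away. Of 67 high-scoring Ly6CHi-RM peaks 3 were missing from blood, with a background of 1.67%: Ets2 at 21.96 kb, Etv1 at 124.64 kb and Elf1 at 56.48 kb. Their scores were 51, 50 and 47, all between 45.4% and 49.9% of the list and so just inside the limit of 50%.

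Between the CD11b-high populations, 3 of 67 Ly6CHi-RM peaks were missing from Ly6CLo-RM, with a background of 3.89%, among them again Ets2 at 21.96 kb and Etv1 at 124.64 kb, and the third was Elf1 at 69.55 kb. In the other direction 5 of 61 Ly6CLo-RM peaks were missing from Ly6CHi-RM (8.20%), with a background of 2.96%, and all 5 were at Etv6. Of these, the peak at 120.79 kb (chr6:134156378-134156578) scored 57 and the one at 184.98 kb scored 117 but had a Ly6CHi-RM centre 243 bp away. Ly6CLo-RM against KN-RM gave 9 of 61 peaks missing from KN-RM (14.8%), with a background of 18.9%, and these belonged to Etv6 (5), Fli1 (2), Etv3 and Elf1. The 1 of 36 KN-RM peaks missing from Ly6CLo-RM, with a background of 5.39%, was Ets2 at 21.96 kb.

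For 16 other ETS genes, 132 regions were found at 15 of them and none at Spdef. Of these, 25 (18.9%) were in all 6 lists. On the F4/80-high side there were 3 (2.27%), beside 7.73% for the 10 genes and 6.09% for all regions, and on the blood and CD11b-high side 26 (19.7%), beside 7.27% and 14.0%. With lists of equal length the 10 genes had 10.2% on the F4/80-high side, against 10.3% of all regions. On the other side they had 3.94%, against 9.83%. None of these differences was tested. Elk3, a ternary complex factor gene, had 1 region on the F4/80-high side and 10 on the other of 29. Ehf had 0 and 2 of 6, Elk1 0 and 1 of 3, and Etv4 0 and 1 of 3. Genes whose 6 shares of regions were closest to a member's, by Euclidean distance among 2799 genes with at least 10 regions, were Rcan1, Gpr146 and Slc25a33 for Spi1 (distances of 0.0937 to 0.131), Adrb1, Dnmt3a and Pgpep1 for Spic (0.145 to 0.185) and Ugp2, Lgalsl and Abl1 for Etv1 (0.0858 to 0.138). The Spic shares rest on 5 regions.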

How the data were processed

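Chromatin accessibility was measured by ATAC-seq. Bowtie2, HOMER and DESeq2 are named, without versions, in the submitters' processing notes, as are the builds mm10 and GRCm38. For each population the authors deposited a single list of peaks whose name refers to IDR, a reproducibility filter, with a tag count signal and a score for each peak. How these were scaled is not given in the sources used here, and the depth of the libraries is unknown. The deposited score was used to rank peaks within a list. The tag signal as deposited broke ties. Peaks were assigned to genes of a RefSeq table (GRCm38.p6), merged across lists and compared by overlap with Python 3.11.15, numpy 2.4.6 and pandas 2.3.3, and the functions were tested on simulated lists. Gene starts came from RefSeq promoter windows for 7 genes. For Spi1, Ets1 and Fli1 distances are from the lower-coordinate gene end.

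Named were all 10 genes with their best-scored, one-sided and list-specific regions, the 4 other ETS genes with the largest difference between sides, and the 3 genes nearest in profile to Spi1, Spic and Etv1. The genes and lists were chosen with earlier results of these data known. Distance windows, overlap rules, score limits and list lengths were varied. Whether the 2 libraries of a population came from separate animals is not used here.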

Additional observations from a re-analysis of the deposited data

How the results depend on the processing

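No paired analysis was possible because each population has 1 list and its columns carry no replicate number, and no library could be left out. Library depth is unknown, and an uncalled region may be open below the calling limit. Windows of 20 or 1000 kb and the nearest gene end kept the 6 peak counts within 1.5 times. The same windows and other overlap rules kept both side counts within 1.5 times and the share in all 6 lists within its interval. Leaving out the KN-RM list (chosen after seeing the data) kept both side counts within 1.5 times. The share in all 5 lists was then 31.8%, with a background of 31.0%, and cannot be set against the share in all 6 lists. With lists of equal length the peak counts were 82 (KC-H), 71 (KC-N), 75 (Ly6CHi-RM), 77 (Ly6CLo-RM) and 70 (blood). The blood and CD11b-high side then had 5 of 127 regions (3.94%), against 9.83% of all regions. The F4/80-high side had 13 of 127 (10.2%), against 10.3%. Requiring all 3 lists of a side left 5 regions on the F4/80-high side (2.27%, against 1.89% of all regions). On the other side it left 8 (3.64%, against 5.72%).

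List-specific counts are small and moved with most settings. With all peaks they were 57 and 11 for KC-H and KC-N, 40 and 6 for KC-N and KN-RM, 20 and 13 for blood and Ly6CHi-RM, 24 and 34 for Ly6CHi-RM and Ly6CLo-RM, and 61 and 7 for Ly6CLo-RM and KN-RM. At the 10 genes the shares that did overlap were 63.5% and 89.9%, 63.3% and 92.0%, 84.1% and 89.1%, 79.8% and 73.6%, 52.7% and 90.7%. Over all peaks the shares were 68.8% and 86.5%, 64.0% and 94.3%, 78.6% and 88.9%, 76.4% and 86.0%, 53.4% and 85.0%. The counts that follow have no share over all peaks beside them and show no trait of the 10 genes. With the best-scored 25% they were 2 for KC-H, 1 for KC-N against KN-RM and 1 in return, 1 for blood and 0 in return, 0 for Ly6CHi-RM and 1 for Ly6CLo-RM, and 0 for Ly6CLo-RM against KN-RM. With no centre of the other list within 1000 bp they were 1 for KC-H, 0 for KN-RM against KC-N and 1 for blood. With equal length they were 2 for KC-H, 2 for KC-N against KN-RM, 1 for blood and 0 in return, 0 for Ly6CHi-RM and 3 for Ly6CLo-RM, and 1 and 3 for Ly6CLo-RM and KN-RM. Fewer peaks enter the comparison in the stricter settings. Peaks per gene and list moved by over 1.5 times in 33 of 60 cases at equal length and in 3 to 5 of 60 under each other setting. In settings chosen after seeing the data, the number of Ets2 regions of KC-H alone was 1 at equal length, none of it from the original 9, and 0 in the best-scored 50%. The number of Etv6 regions of Ly6CLo-RM alone was 10, with 5 of the original 12, and 1.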
